A study of Homo sapiens with 6 samples.

Results

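The genes of cholesterol and fatty acid synthesis were examined in RNA-seq of HEK293 cells expressing sh-control or a short-hairpin RNA against *RREB1*. A list of 29 genes was matched by symbol to the merged read-count table, and all 29 were among the 23459 genes tested. The list holds 7 genes of the mevalonate pathway, 11 genes from squalene to cholesterol, 5 genes of SREBP and its sterol switch, the sterol carrier *STARD4* and 5 genes of fatty acid and glycerolipid synthesis. HEK293 is a human embryonic kidney line, and the labels name HEK293T, its derivative with the SV40 large T antigen. In the study, HEK293T cells were infected with lentivirus carrying a non-specific hairpin (sh-control) or a hairpin against *RREB1*, stable lines were selected, and both groups grew in DMEM with serum. Each group had 3 libraries of total RNA, made with a stranded kit. The labels do not say whether the 3 libraries of a group came from separate cultures, so p-values measure the spread between these libraries, which may be technical.

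Cells build cholesterol and fatty acids from acetyl-CoA. The mevalonate pathway makes isoprenoid units, squalene is assembled from them, and a chain of enzymes of the endoplasmic reticulum folds and trims it to cholesterol. The SREBP transcription factors switch on most of these genes when sterols run low: SCAP escorts SREBP out of the endoplasmic reticulum, and INSIG1 and INSIG2 hold SCAP back when sterols are plentiful. SREBF2 mainly serves the cholesterol genes and SREBF1 mainly the fatty acid genes, and the factor NF-Y, which binds the CCAAT box, works beside them at many of their promoters.

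RefSeq promoter windows (GRCh38.p14, from 250 bases before to 50 after a gene start) were found for 25 of the 29 genes, and not for *ACAT2*, *FDFT1*, *SQLE* and *FASN*. The motif TCACNCCAC, a sterol regulatory element, was searched on both strands and was in the window of 1 of the 25 genes, *SREBF2*, and in 1.39% of the 27305 genes of the table. The CCAAT box (CCAAT, both strands) was in 19 of the 25, against 39.7% of all genes. The GC box (GGGCGG, both strands) was in 24 of the 25, against 48.3% of all genes. In the stretches below, each of 30 bases read along the strand of the gene, capitals mark the motif, and it overlaps no other motif of the search. The *SREBF2* element is shown as the only match to the sterol motif. The CCAAT stretches are from 3 genes that were higher in the sh-*RREB1*-labelled libraries (*LSS*, *DHCR7*, *MVD*) and 2 that were not (*HMGCS1*, *FDPS*).
SREBF2, sterol regulatory element, chr22:41832961-41832990, plus strand: atgacgcgccaTCACCCCACgcaccgcttc
LSS, CCAAT box, chr21:46228908-46228937, minus strand: tcgcggcgctctgATTGGttgcgtgggcgt
DHCR7, CCAAT box, chr11:71448471-71448500, minus strand: tcaggctcctcgaCCAATcacggggcgcgg
MVD, CCAAT box, chr16:88663160-88663189, minus strand: gggctcgcacgggCCAATcctgtggtagcg
HMGCS1, CCAAT box, chr5:43313496-43313525, minus strand: tctaccggccgcgATTGGctgtgggagcca
FDPS, CCAAT box, chr1:155308731-155308760, plus strand: cgacggccagcagCCAATcagcgcggctca
Where the stretch reads ATTGG, the box lies on the other strand. Among genes with a window, the CCAAT box was in 13 of the 18 with a positive log2 fold change and in 6 of the 7 with a negative one. A match describes letters in a window and not a bound site. Only these exact letters were searched, so a window without a match does not show that the gene lacks the element. Sites outside the windows were not searched.

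Some facts of the libraries touch every result. Sh-control libraries held 23362197 to 33044061 reads on genes, with 12257054 to 26145878 in the sh-*RREB1*-labelled libraries, where replicate 3 was the shallowest. In that library 52.1% of the aligned reads mapped to several places, against 3.66% to 7.63% in the others. *RREB1* itself was at 27.1, 25.2 and 26.6 CPM (normalised read counts, scaled to library size by TMM) in sh-control and at 23.7, 24.7 and 23.2 CPM in the sh-*RREB1*-labelled libraries. Its log2 fold change was −0.14 (SE 0.13, edgeR adjusted p = 0.493), so the targeted transcript did not pass the test, although all sh-*RREB1*-labelled libraries were below all sh-control libraries. With the correction for GC content and exonic length explained further on, it was at −0.36 (95% confidence interval −0.63 to −0.10, adjusted p = 0.0543). The paper reports a larger reduction of *RREB1* mRNA, normalised to *ACTB*, and reduced RREB1 protein with the hairpin of its RNA-seq. Those measurements are separate from these libraries. Directions are those of the labels. The summed level of 6 markers of the line was 426 to 493 CPM in sh-control against 715 to 835 CPM in the other group. Most of that sum was *VIM*, at 330 to 360 CPM against 530 to 617 CPM. Of the 6 markers, 4 were above sh-control in every library of the other group, and 2, *KRT8* and *KRT18*, overlapped. *PAX2* was at 0.0935 to 0.476 CPM. *ADIPOQ*, *LEP*, *TTR* and *CD3E* (adipocyte, adipocyte, hepatocyte and T cell) were at 0 in every library. The summed level of 5 adipocyte markers was 0.699 to 1.04 CPM in sh-control against 0.555 to 0.957 CPM in the other group. That of 6 hepatocyte markers was 0.478 to 0.686 and 0.159 to 0.483 CPM, and that of 5 leukocyte markers 0.912 to 1.37 and 0.872 to 1.45 CPM. That of 6 fibroblast markers was 5.96 to 7.29 CPM in sh-control against 6.82 to 19.0 CPM in the sh-*RREB1*-labelled libraries, with the top value in replicate 2. The part of these cells in the results was not tested. In bulk RNA, a change in the number of cells that use a gene and a change in RNA per cell cannot be told apart.

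The lipid synthesis genes did not all move the same way. *FASN*, fatty acid synthase, rose 5.67-fold and *SREBF1*, which encodes the fatty acid arm of SREBP, rose 2.83-fold. The study used DESeq2, whose calls are given further on. In edgeR, *FASN* and *SREBF1* were the only members called at the limits of the study, a log2 fold change beyond 1 in either direction with an adjusted p under 0.01. Across all genes tested 3.38% were called, 2.69% higher and 0.686% lower, against 2 of the 29 members higher (6.90%) and 0 lower. At the wider limit of an adjusted p below 0.05, *FASN*, *SREBF1*, *LSS*, *CYP51A1*, *DHCR7*, *MVD* and *SCAP* rose and *HSD17B7* fell. These 7 and 1 of 29 compare with 10.7% of all genes higher and 8.66% lower. Both shares are over all 23459 genes, of which 14333 had a mean log2 CPM above 0. Over these 14333 genes the log2 fold change also rose with GC content (Spearman's rho 0.59), which is taken up below. The other 21 members did not pass. In 12 members all libraries labelled sh-*RREB1* were above all sh-control libraries (21.0% of all genes), in 6 all were below (19.9% of all genes), and in 11 the groups overlapped. The median log2 fold change of the members was 0.28, against 0.01 over all genes tested. An unadjusted edgeR p below 0.05 was found in 17 of the 29 members and in 8004 of the 23459 genes tested.

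**Figure D1:**
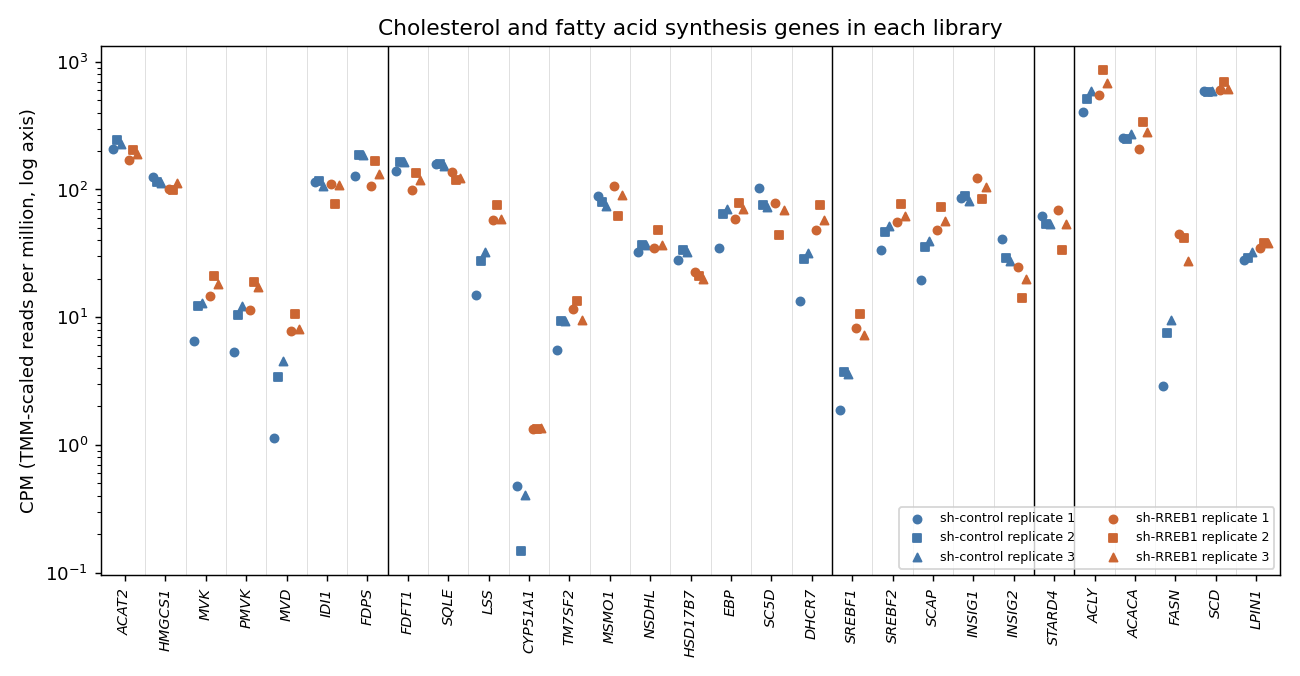
Level of each of the 29 genes in CPM (log axis) in the 3 sh-control libraries (blue) and the 3 libraries labelled sh-RREB1 (orange), with marker shape for the replicate number and vertical lines between the groups of genes. *FASN* sits between 2.91 and 9.51 CPM in sh-control and between 27.3 and 45.1 CPM in the other group, while the groups of *ACACA*, *ACLY* and *MSMO1* overlap.

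The number of members called rested on single libraries. Leaving out sh-control replicate 1 gave 5 called members and leaving out sh-control replicate 3 gave 1. None was called when sh-control replicate 2 or any of the 3 sh-*RREB1*-labelled libraries was left out, where 4 to 7 members had an adjusted p below 0.05. This was not particular to the members. Over all 23459 genes tested, 792 were called with every library and 8 to 1116 with 1 library left out, most of them without sh-control replicate 1. DESeq2, the tool of the study, called 6 members, all higher: *FASN*, *SREBF1*, *LSS*, *CYP51A1*, *DHCR7* and *MVD*. DESeq2 also called more genes than edgeR over all genes tested, and both counts are given below with the dependence on processing.

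Exonic GC content moved with the fold changes and is given beside the genes below. Over the 29 members the log2 fold change and GC content had a Spearman's rho of 0.71 and a Pearson's r of 0.66 across genes, which share the same 6 libraries and are not independent replicates. Without *CYP51A1*, the rho was 0.83. Expressed genes (mean log2 CPM above 0) were split into 10 bins of equal size by GC content, and some members are set against their own bin below. *CYP51A1* was below that cut and has no bin. Of the 10 members above 55% GC, 10 had a positive log2 fold change and 6 an adjusted p below 0.05. Of the 10 below 45%, 3 were positive. The same order was present within sh-control: replicate 1 minus the mean of replicates 2 and 3, on the log2 scale, had a rho of −0.93 with GC content, and replicate 1 was the lowest sh-control library in 18 of the 29 members. Each library's smooth trend on GC content and exonic length was therefore also removed in the model, and values after this correction are named as such. Because the trends differ between the groups, the correction can also take away a difference between groups that follows GC content.

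**Figure D2:**
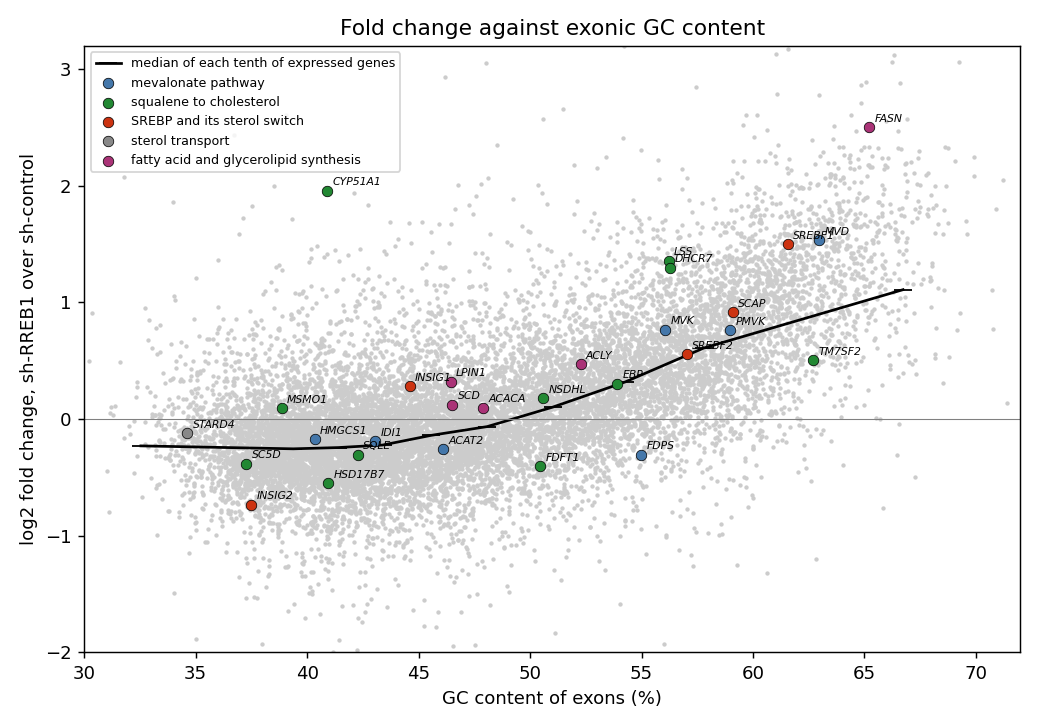
Log2 fold change (sh-RREB1 over sh-control) against the GC content of exons (%), with expressed genes in grey, the members coloured by group, and the line at the median of each of 10 bins of expressed genes by GC content. The line runs from −0.23 in the bin of lowest GC content to 1.11 in that of highest, *FASN*, *LSS*, *DHCR7* and *CYP51A1* lie above it, *FDPS* and *TM7SF2* lie below it, and 17 genes fall beyond the axes.

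After the correction, *FASN* and *CYP51A1* were called, where 2.99% of all genes were. At an adjusted p below 0.05, 8 members were higher (27.6%, against 10.2% of all genes) and 4 were lower (13.8%, against 11.6%). The higher ones were *FASN*, *CYP51A1*, *LSS*, *DHCR7*, *SREBF1*, *MSMO1*, *INSIG1* and *LPIN1*, and the lower ones *FDPS*, *FDFT1*, *TM7SF2* and *INSIG2*. The median log2 fold change of the members was 0.07, against −0.02 over all genes. The rho between corrected log2 fold change and GC content over the members was 0.26.

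In the mevalonate pathway, *MVD* rose and the other 6 genes did not pass the test. *MVD* encodes mevalonate diphosphate decarboxylase, which makes the isoprenoid building block. Its levels were 1.13, 3.39 and 4.55 CPM in sh-control against 7.85, 10.6 and 8.09 CPM in the sh-*RREB1*-labelled libraries. Every library of the second group was above every sh-control library, and sh-control replicate 1 was the lowest. The log2 fold change was 1.53 (SE 0.40, edgeR adjusted p = 0.0301), and it was 1.12 without sh-control replicate 1 (adjusted p = 0.00428), where *MVD* was called. When sh-control replicate 2 or any of the 3 sh-*RREB1*-labelled libraries was left out, its adjusted p was between 0.0596 and 0.0951. The log2 fold change of *MVD* after the correction was 0.41 (SE 0.17, adjusted p = 0.111). *MVD* has a GC content of 63.0%, and of the 1434 expressed genes in its GC bin 345 had a larger log2 fold change.

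The kinases just upstream, *MVK* and *PMVK*, had log2 fold changes of 0.77 and 0.76 (adjusted p of 0.0773 and 0.120), with sh-control replicate 1 lowest in both. *MVK* had 6.47, 12.2 and 13.0 CPM in sh-control against 14.7, 21.1 and 18.2 CPM in the other group, without overlap. After the correction the values were 0.26 and 0.06. The enzymes at the head of the pathway had small negative values. *ACAT2*, the cytosolic thiolase, was at −0.26 (adjusted p = 0.138) and *HMGCS1*, which condenses the product to HMG-CoA, at −0.17 (adjusted p = 0.291). *IDI1*, the isomerase of isopentenyl diphosphate, was at −0.19 (adjusted p = 0.418). The confidence intervals at 95% reached from −0.51 to −0.01 for *ACAT2*, from −0.41 to 0.07 for *HMGCS1* and from −0.53 to 0.15 for *IDI1*. After the correction *ACAT2* was at −0.12, and the sign turned for *HMGCS1*, at 0.07, and *IDI1*, at 0.01.

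*FDPS*, which joins isoprenoid units to farnesyl diphosphate at the branch between sterols and other isoprenoids, had 127, 187 and 186 CPM in sh-control. Its levels were 106, 166 and 132 CPM in the sh-*RREB1*-labelled libraries, and the groups overlapped. Its log2 fold change was −0.31 (SE 0.20, adjusted p = 0.314). After the correction the log2 CPM values were 7.54, 7.60 and 7.52 in sh-control and 6.68, 6.98 and 6.91 in the other group, which no longer overlapped. The corrected log2 fold change was −0.69 (SE 0.09, adjusted p = 0.000446), and the adjusted p stayed below 0.05 with each of the 6 libraries left out. Its GC content is 54.98%, the median gene of the same GC bin was at 0.32, and 105 of 1433 genes in that bin were lower than *FDPS* before the correction. The annotation names 8 pseudogenes of *FDPS*, 3 each of *IDI1*, *HSD17B7* and *CYP51A1*, and 1 of *SCD*, so reads of these genes may have been split or lost in counting.

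From squalene to cholesterol, 3 of 11 genes rose and 1 fell at an adjusted p below 0.05 (27.3% and 9.09%, against 10.7% and 8.66% of all genes). *LSS*, lanosterol synthase, closes the sterol rings. Its levels were 14.9, 27.3 and 32.2 CPM in sh-control (24.8 ± 8.88, SD, n = 3) against 57.3, 75.1 and 58.8 CPM in the sh-*RREB1*-labelled libraries (63.7 ± 9.85, SD, n = 3). The lowest value of the second group was above the highest of sh-control. The log2 fold change was 1.36 (SE 0.26, edgeR adjusted p = 0.0103), just outside the limit for a call. After the correction it was 0.86 (SE 0.11, adjusted p = 0.000445). *LSS* lies on chromosome 21 from 46188141 to 46228824 (hg38) and has a GC content of 56.2%, and 100 of the 1433 genes in its GC bin had a larger log2 fold change.

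*DHCR7*, the reductase that makes cholesterol in the last step, had a similar profile. Its levels were 13.3, 28.3 and 31.5 CPM in sh-control (24.4 ± 9.71, SD, n = 3) against 48.1, 74.9 and 57.3 CPM in the other group (60.1 ± 13.7, SD, n = 3). The groups did not overlap, and in both genes sh-control replicate 1 was the lowest library and sh-*RREB1* replicate 2 the highest. Its log2 fold change was 1.30 (SE 0.30, adjusted p = 0.020), and 0.80 after the correction (SE 0.14, adjusted p = 0.00249). *DHCR7* lies on chromosome 11 from 71428193 to 71452868 (hg38) with a GC content of 56.3%. Without the correction its adjusted p was between 0.0639 and 0.0658 when sh-control replicate 2 or sh-*RREB1* replicate 2 or 3 was left out. In its GC bin, 127 of the 1433 genes had a larger log2 fold change. With the correction, both *LSS* and *DHCR7* kept an adjusted p below 0.05 whichever of the 6 libraries was left out.

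*CYP51A1*, the lanosterol demethylase, went up from a low count. Its reads numbered 11, 4 and 13 in sh-control and 33, 35 and 17 in the other group, or 113 reads in all, the fewest of the members. In CPM it was at 0.478, 0.147 and 0.405 against 1.33, 1.34 and 1.35, without overlap. The log2 fold change was 1.96 (SE 0.38, adjusted p = 0.0108), and 2.22 after the correction (SE 0.37, adjusted p = 0.00148). Its GC content, 40.9%, is in the range where most members had negative values. In the annotation used here (Gencode version 44) 68.2% of its exonic bases are shared with other genes on the same strand. STAR leaves reads that fall on overlapping genes unassigned, but the counts were made with Gencode version 25, whose overlaps were not checked. With so few reads and this open point, both its level and its fold change are uncertain.

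*HSD17B7*, a ketoreductase of sterol demethylation, was the member that fell. Its levels were 28.1, 33.3 and 32.1 CPM in sh-control against 22.7, 21.1 and 19.99 CPM in the sh-*RREB1*-labelled libraries, so that the groups did not overlap. Its log2 fold change was −0.55 (SE 0.14, adjusted p = 0.0267), and −0.30 after the correction (adjusted p = 0.102). When replicate 2 or 3 of either group was left out, the adjusted p was between 0.0518 and 0.116. *FDFT1*, squalene synthase, and *SQLE*, squalene epoxidase, had lower values in every library of that group without passing the test. *FDFT1* had 139, 165 and 163 CPM in sh-control against 98.5, 135 and 119 CPM in the other group, with a log2 fold change of −0.40 (adjusted p = 0.0736). After the correction *FDFT1* was at −0.49 (adjusted p = 0.00215) with all 6 fits that left out a library below 0.05. *SQLE* was at −0.31 (adjusted p = 0.0660), and at −0.08 after the correction (adjusted p = 0.515).

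*TM7SF2*, a sterol reductase with a GC content of 62.7%, changed sign with the correction. Its levels were 5.56, 9.38 and 9.41 CPM in sh-control against 11.6, 13.5 and 9.52 CPM in the sh-*RREB1*-labelled libraries, without overlap, with a log2 fold change of 0.51 (SE 0.24, adjusted p = 0.172). In its GC bin the median was 1.11, and 222 of 1434 genes were lower than *TM7SF2*. After the correction the log2 CPM values were 3.82, 3.57 and 3.35 in sh-control and 3.03, 2.93 and 2.78 in the other group, and the log2 fold change was −0.64 (SE 0.14, adjusted p = 0.00747). The remaining enzymes of this stretch did not pass the test at a log2 fold change of 0.09 for *MSMO1*, 0.18 for *NSDHL*, 0.30 for *EBP* and −0.38 for *SC5D*. These encode the methylsterol oxidase, the sterol dehydrogenase, the sterol isomerase and the sterol desaturase. *MSMO1* alone of these passed after the correction, at 0.36 (adjusted p = 0.0225), and it stayed below 0.05 only without sh-control replicate 1 or sh-*RREB1* replicate 2, with adjusted p values up to 0.0941 when another library was left out. In *EBP*, 36.4% of exonic bases are shared with another gene on the same strand in Gencode version 44. The counts were made with version 25, whose overlaps were not checked, so its value may be uncertain for that reason.

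**Figure D3:**
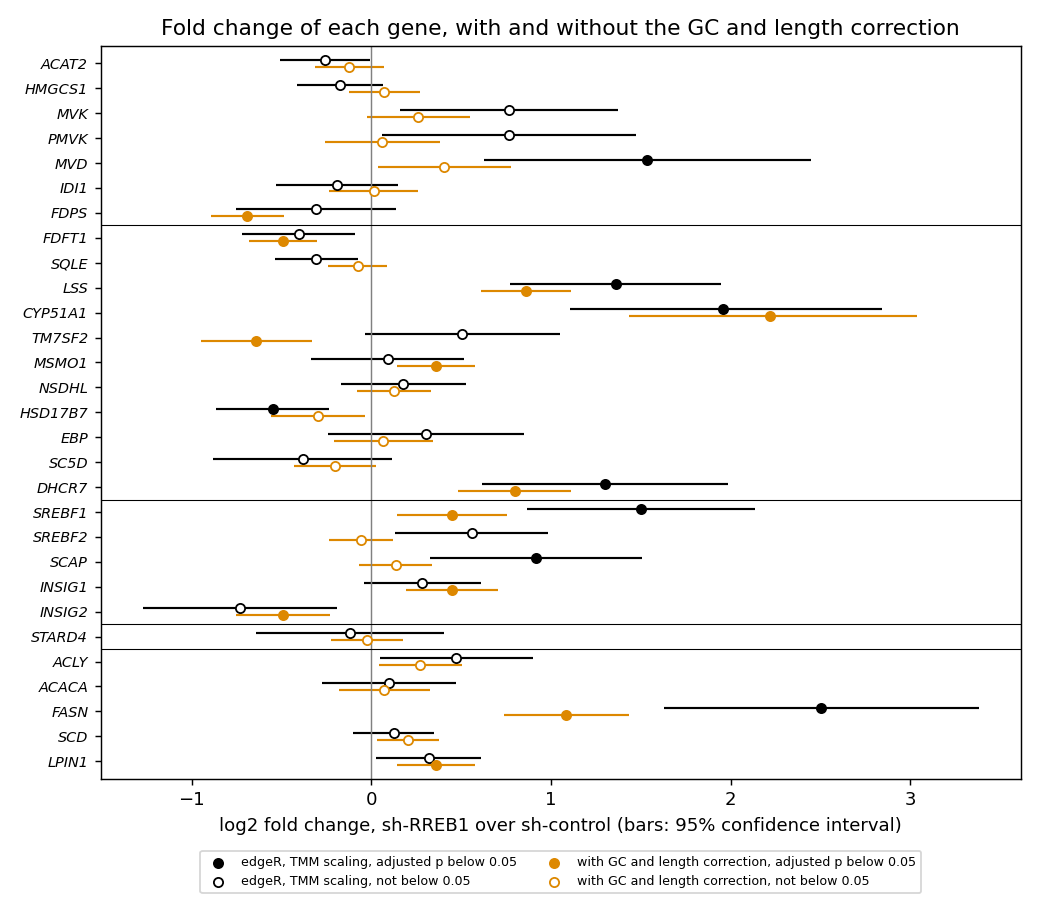
Log2 fold change (sh-RREB1 over sh-control) of each of the 29 genes with its 95% confidence interval, from edgeR with TMM scaling (black) and with the GC and length correction (orange), with filled points at an adjusted p below 0.05 and horizontal lines between the groups of genes. *FASN*, *LSS*, *DHCR7*, *CYP51A1* and *SREBF1* are filled and positive in both, and *TM7SF2* goes from 0.51 to −0.64.

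Among the genes of the sterol switch, *SREBF1* was called and *SCAP* rose. *SREBF1* had 1.87, 3.72 and 3.62 CPM in sh-control (3.07 ± 1.04, SD, n = 3) against 8.22, 10.6 and 7.30 CPM in the sh-*RREB1*-labelled libraries (8.69 ± 1.69, SD, n = 3). The groups were well apart, with sh-control replicate 1 again the lowest. The log2 fold change was 1.499 (SE 0.28, edgeR adjusted p = 0.00942). With 1 library left out the adjusted p was 0.00223 without sh-control replicate 1 and between 0.0164 and 0.0406 otherwise, which ended the call in those 5 fits. After the correction the log2 fold change was 0.45 (SE 0.14, adjusted p = 0.0404). That adjusted p was 0.0375 without sh-control replicate 1 and between 0.0609 and 0.181 with any of the other 5 libraries left out. *SREBF1* lies on chromosome 17 from 17810399 to 17837002 (hg38) with a GC content of 61.5%, and 373 of the 1434 genes in its GC bin had a larger log2 fold change.

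*SREBF2* and its escort *SCAP* were also higher in each library of the second group. *SCAP* had 19.4, 35.2 and 39.6 CPM in sh-control against 48.4, 72.9 and 56.7 CPM in the sh-*RREB1*-labelled libraries, with a log2 fold change of 0.92 (SE 0.26, adjusted p = 0.0401). That adjusted p was between 0.0514 and 0.123 without sh-control replicate 2 or without any of the 3 sh-*RREB1*-labelled libraries. *SREBF2* was at 33.8, 46.8 and 51.5 CPM against 55.3, 77.5 and 61.6 CPM, with a log2 fold change of 0.56 (SE 0.19, adjusted p = 0.0693). After the correction neither passed: *SCAP* was at 0.13 (adjusted p = 0.345) and *SREBF2* at −0.06 (adjusted p = 0.673), with a 95% confidence interval from −0.24 to 0.12 for *SREBF2*. *SREBF2* is the gene with the sterol regulatory element printed above.

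The 2 retention proteins went opposite ways in value. *INSIG1*, itself a target of SREBP, was at 85.2, 88.1 and 81.8 CPM in sh-control against 123, 83.9 and 104 CPM in the other group, with overlap and a log2 fold change of 0.28 (SE 0.14, adjusted p = 0.203). *INSIG2* was at 41.2, 28.9 and 27.4 CPM against 24.7, 14.1 and 19.8 CPM, without overlap, with a log2 fold change of −0.73 (SE 0.24, adjusted p = 0.0613). After the correction both passed at an adjusted p below 0.05, *INSIG1* at 0.45 (adjusted p = 0.0180) and *INSIG2* at −0.49 (adjusted p = 0.0129). With the correction and 1 library left out, *INSIG1* stayed below 0.05 in 2 of 6 fits and *INSIG2* in 5 of 6. *STARD4*, which carries sterol between membranes, was at −0.12 (adjusted p = 0.764), and its level in the sh-*RREB1*-labelled libraries ranged from 33.9 to 69.4 CPM around sh-control values of 53.9 to 62.3 CPM.

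In fatty acid synthesis, *FASN* had the largest fold change of the members, and *CYP51A1* a larger one after the correction. *FASN* had 2.91, 7.54 and 9.51 CPM in sh-control (6.65 ± 3.39, SD, n = 3) against 45.1, 41.4 and 27.3 CPM in the sh-*RREB1*-labelled libraries (37.9 ± 9.41, SD, n = 3). In reads these were 67, 205 and 305 against 1121, 1080 and 344. The lowest of the second group was above the highest of sh-control, and sh-control replicate 1 was again the lowest. Its log2 fold change was 2.504 (SE 0.39, edgeR adjusted p = 0.00531), with a 95% confidence interval from 1.63 to 3.38.

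*FASN* also has the highest GC content of the members, 65.2%, and lies on chromosome 17 from 82078338 to 82098294 (hg38, minus strand). In the bin of highest GC content, the median was 1.11 and 19 of 1434 genes had a larger log2 fold change than *FASN*. After the correction the log2 CPM values were 3.17, 3.43 and 3.46 in sh-control and 4.78, 4.34 and 4.17 in the other group, still without overlap. The corrected log2 fold change was 1.08 (SE 0.16, adjusted p = 0.000801), a 2.12-fold difference, and *FASN* was called in 5 of the 6 corrected fits that left out a library. Without the correction it was called without sh-control replicate 1 or replicate 3, at log2 fold changes of 2.12 and 2.82. It was not called without sh-control replicate 2 (adjusted p = 0.0377) or without sh-*RREB1* replicate 1, 2 or 3 (adjusted p of 0.0218, 0.0197 and 0.0240).

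The enzymes on either side of *FASN* did not pass the test. *ACLY*, which makes cytosolic acetyl-CoA from citrate, was at 404, 509 and 595 CPM in sh-control against 552, 863 and 676 CPM in the other group, with a log2 fold change of 0.47 (SE 0.19, adjusted p = 0.113). *ACACA*, the carboxylase that supplies malonyl-CoA to fatty acid synthase, was at 254, 248 and 274 CPM against 209, 339 and 283 CPM, with a log2 fold change of 0.10 (SE 0.16, adjusted p = 0.734). The groups overlapped in both genes.

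*SCD*, the desaturase of saturated fatty acids, did not pass the test. Its levels were 592, 579 and 588 CPM in sh-control against 602, 700 and 616 CPM in the sh-*RREB1*-labelled libraries, with a log2 fold change of 0.12 (95% confidence interval −0.10 to 0.35, adjusted p = 0.428). *LPIN1*, a phosphatidate phosphatase of glycerolipid synthesis, was at 27.8, 28.999 and 32.1 CPM against 34.5, 38.2 and 38.3 CPM. Its groups did not overlap, and its log2 fold change was 0.32 (SE 0.13, adjusted p = 0.118). After the correction *LPIN1* passed, at 0.36 (adjusted p = 0.0223, and 0.0833 and 0.105 without sh-control replicate 2 and sh-*RREB1* replicate 3), and *ACLY*, *ACACA* and *SCD* did not, at 0.27, 0.07 and 0.20.

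**Figure D4:**
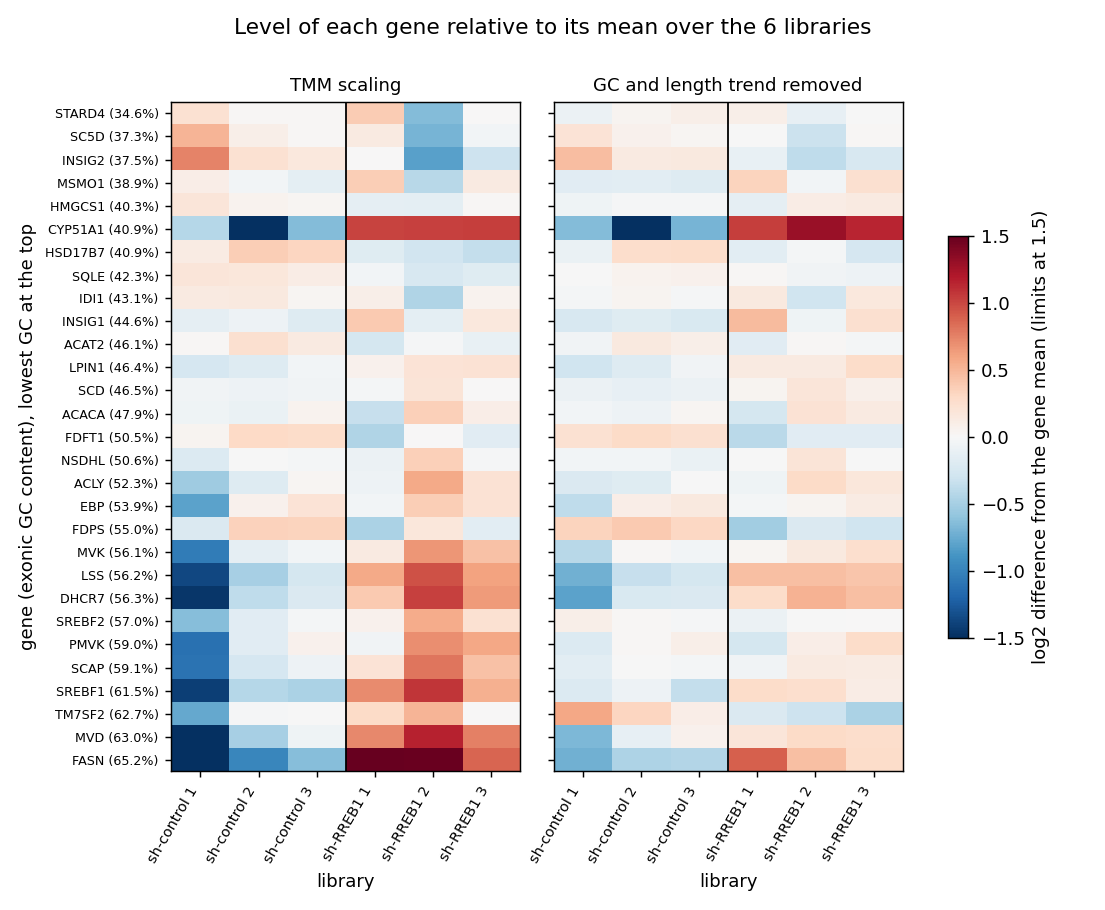
Level of each gene (rows, ordered by exonic GC content) in each library (columns) as the log2 difference from the gene's mean over the 6 libraries, with TMM scaling on the left and with each library's GC and length trend removed on the right; colours are limited at 1.5. On the left, sh-control replicate 1 is the lowest sh-control library in 18 of the 29 genes and darkens toward high GC content, and on the right *FASN*, *LSS*, *DHCR7* and *CYP51A1* still separate the groups.

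The order of levels was set by a few genes. Per kilobase of exons, *SCD* had the highest mean level in sh-control, at 112 ± 1.198 CPM per kilobase (SD, n = 3), followed by *ACLY* at 96.5 ± 18.4 and *ACAT2* at 85.6 ± 6.52. The spread of *ACLY* reached both neighbours, and those of *SCD* and *ACAT2* did not reach each other. At the other end were *CYP51A1* at 0.0823, *SREBF1* at 0.372, *MVD* at 0.641 and *FASN* at 0.714 CPM per kilobase, with the spreads of the last 3 overlapping, and *FASN* reached 4.07 ± 1.01 in the sh-*RREB1*-labelled libraries. The summed level of the 29 genes was 2730, 2994 and 3093 CPM in sh-control against 2949, 3542 and 3189 CPM in the other group, and the groups overlapped.

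Other genes of lipid metabolism were taken from 8 lists that cover processing of SREBP, isoprenoid branches, sterol traffic, sterol efflux, fatty acid elongation and activation, glycerolipid synthesis, fatty acid oxidation and further sterol enzymes. Of 119 listed genes 115 were tested, and 5 were called (3 higher and 2 lower), where 3.38% of all genes were. At an adjusted p below 0.05, 17 were higher (14.8%, against 10.7% of all genes) and 13 lower (11.3%, against 8.66%), and the median log2 fold change was 0.01. The balance turned after the correction, with 19 higher (16.5%, against 10.2% of all genes) and 24 lower (20.9%, against 11.6%). Leaving out sh-control replicate 1 gave 7 called genes, sh-control replicate 3 gave 3, sh-*RREB1* replicate 2 gave 2 and each of the other 3 libraries gave 0.

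In the lists that hold sterol receptors and carriers, *NR1H2*, which encodes the oxysterol receptor LXR-beta, was called higher. Its levels were 1.26, 3.35 and 3.96 CPM in sh-control against 12.5, 15.5 and 12.1 CPM in the sh-*RREB1*-labelled libraries, with a log2 fold change of 2.21 (adjusted p = 0.00581) and 1.42 after the correction (adjusted p = 0.000164). In its list of 9 genes of LXR and sterol efflux, 3 were higher at an adjusted p below 0.05 (33.3%, against 10.7% of all genes) and 0 lower. After the correction 2 were higher and 1 lower (22.2% and 11.1%, against 10.2% and 11.6% of all genes). The median of these 9 log2 fold changes went from 0.34 to −0.08. Both called genes of sterol uptake and trafficking encode Aster proteins, which move cholesterol from the plasma membrane to the endoplasmic reticulum. *GRAMD1C* fell from 28.5, 28.5 and 26.4 CPM to 11.8, 10.4 and 10.4 CPM, at a log2 fold change of −1.36 (adjusted p = 0.00192) and −1.15 after the correction (adjusted p = 0.000177). *GRAMD1A* rose, at a log2 fold change of 1.27 (adjusted p = 0.00956), and was at 0.40 after the correction (adjusted p = 0.0326). Among the 15 genes of this list 2 were higher and 2 lower at an adjusted p below 0.05 (13.3% each, against 10.7% and 8.66% of all genes). After the correction 4 were higher and 4 lower (26.7% each, against 10.2% and 11.6%).

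Among 25 tested genes of fatty acid elongation, desaturation and activation, *SCD5*, a second stearoyl-CoA desaturase, was called higher. Its levels were 11.2, 11.6 and 12.8 CPM in sh-control against 35.2, 28.6 and 32.3 CPM in the other group, with a log2 fold change of 1.43 (adjusted p = 0.00190) and 1.56 after the correction (adjusted p = 2.26e-05). *SCD5* has a GC content of 45.6%, and *SCD* did not pass in the same libraries. In that list 4 genes were higher (16.0%, against 10.7% of all genes) and 0 lower at an adjusted p below 0.05. Of the 25 genes, 5 were higher and 4 lower after the correction, against 10.2% of all genes higher and 11.6% lower. Of 21 genes of fatty acid oxidation, 3 were higher (14.3%, against 10.7% of all genes) and 7 lower (33.3%, against 8.66%) at the same limit. After the correction 1 was higher (4.76%, against 10.2%) and 8 lower (38.1%, against 11.6%). *ACADL*, a long-chain acyl-CoA dehydrogenase, was called lower at −1.12 (adjusted p = 0.00791), and was at −0.85 after the correction (adjusted p = 0.00221).

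In the other 4 lists no gene was called by edgeR, and DESeq2 called *RABGGTA* and *AGPAT2*, both higher. After the correction these were at 0.41 (adjusted p = 0.0617) and 0.11 (adjusted p = 0.689) in edgeR. At an adjusted p below 0.05, 1 of the 13 genes of the isoprenoid branch was higher and 3 were lower (7.69% and 23.1%, against 10.7% and 8.66% of all genes). The farnesyltransferase subunit *FNTA* was among the lower ones, at −0.49 (adjusted p = 0.0201). After the correction 2 genes of this branch were higher and 2 lower (15.4% each, against 10.2% and 11.6%). Of the 15 genes of glycerolipid synthesis 3 were higher, where 10.7% of all genes were, and 0 lower, among them the acyltransferase *AGPAT1* at 0.76 (adjusted p = 0.0111). After the correction 2 genes of glycerolipid synthesis were higher and 4 lower (13.3% and 26.7%, against 10.2% and 11.6% of all genes), and *AGPAT1* was at 0.42 (adjusted p = 0.00555). Of the 6 tested further sterol enzymes 1 was lower (16.7%, against 8.66% of all genes), *FAXDC2*, at −0.84 (adjusted p = 0.0364). In these 3 lists of 13, 15 and 6 tested genes, 6, 8 and 1 had an unadjusted edgeR p below 0.05, against 8004 of all 23459 genes tested.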

How the data were processed

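RNA-seq libraries of HEK293 cells, 3 sh-control and 3 labelled sh-*RREB1*, were used. The authors aligned reads to hg38 with STAR and Gencode version 25 and deposited raw counts of reads per gene and strand for each library, with no normalization, and a merged table with the same counts. Only reads counted on the sense strand entered the tests. Reads on no gene (19.2% to 33.1% of aligned reads) were left out. Where a symbol had several identifiers, the most-read identifier was kept, and genes with fewer than 10 reads in all were dropped. Groups were compared with edgeR 4.0.16 (quasi-likelihood test, TMM, Benjamini-Hochberg adjustment over 23459 genes) in R 4.3.3, and a gene was called when its adjusted p was under 0.01 and its log2 fold change beyond 1 in either direction. CPM values are TMM-scaled, and log2 CPM carries a prior count of 0.5. Gencode version 44 (hg38) gave exonic lengths and GC content, and per-library splines on both (5 degrees of freedom, genes with a mean log2 CPM above 0) served as an offset. The spread between 3 libraries per group and depths from 12257054 to 33044061 reads limit the precision.

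The tests were tried on simulated counts with known changes, with and without a GC trend between libraries.

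The members, the other lipid lists, the markers and the tests were chosen with earlier results of these data known. The named genes are the members, *RREB1*, the called genes of each other list and, where none was called, the gene with the lowest adjusted p and a mean of at least 1 CPM (1 such gene is not reported here; with over 4 called genes in a list, which did not occur, the 2 largest changes each way). Alternatives were DESeq2 1.42.0, other scalings and filters, both strands, the merged table, every identifier, the correction, a block on replicate number, and each library left out. The most similar libraries, sh-control replicates 2 and 3, differed beyond sampling noise (chi-square per degree of freedom 5.13), and every library was kept. ChIP-seq was not analysed here.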

Additional observations from a re-analysis of the deposited data

Results flagged for a closer look

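Reads on the strand opposite to *FDPS* were not part of any comparison above. Their numbers were 24, 35 and 49 in sh-control against 42, 47 and 23 in the sh-*RREB1*-labelled libraries, which is 112 reads in the latter group. As a share of the reads on both strands of *FDPS*, they were 0.812%, 0.684% and 0.815% in sh-control and 1.57%, 1.07% and 1.36% in the other group, so that the groups did not overlap in share. In the annotation 18.6% of the exonic bases of *FDPS* lie over exons of a gene on the other strand, and the part of that gene in these reads was not tested. Other members had larger shares. That of *ACAT2* was 22.6% to 29.5% in sh-control and 18.9% to 33.7% in the other group. Groups also did not overlap in *MVK* (16.8% to 19.7% against 9.49% to 15.5%) and *TM7SF2* (1.92% to 4.73% against 5.90% to 9.09%), among others.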

How the results depend on the processing

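Against 792 genes called in all and 2 members called, DESeq2 gave 1651 and 6, a minimum of 1 read in total 1817 and 6, library totals alone 4 members, edgeR's filterByExpr 4 members and both strands together 1 member. Members with an adjusted p below 0.05 numbered 8, and 14 with a minimum of 1 read. The 5 called genes of the other lipid lists became 10 with DESeq2, 12 with a minimum of 1 read and 3 with both strands. With the replicate block, 1697 genes, 6 members and 12 genes of the other lists were called and 15 members had an adjusted p below 0.05 (14 with the block and the correction together). Same-numbered libraries deviated together at correlations of 0.50, 0.43 and −0.28 over 14333 genes, so the numbers were not taken to pair the samples. Leaving out a library gave 8 to 1116 genes, 0 to 5 members and 0 to 7 genes of the other lists called, and 4 to 13 members with an adjusted p below 0.05, with and without the correction. The lowest counts came without sh-*RREB1* replicate 3 or sh-control replicate 2 (8 and 9 genes), and 25, 136, 377 and 1116 genes were called without sh-*RREB1* replicate 1, sh-*RREB1* replicate 2, sh-control replicate 3 and sh-control replicate 1. The median log2 fold change of the members, 0.28, was 0.072 with the correction, 0.085 with correction and block, 0.057 with DESeq2 and the correction (added once the data had been seen), and 0.038 to 0.28 with a library left out. Log2 fold changes that changed sign were −0.0030 for *MSMO1* and −0.0040 for *ACACA* with upper-quartile scaling. With the correction they were 0.072 for *HMGCS1*, 0.012 for *IDI1*, −0.64 for *TM7SF2* and −0.057 for *SREBF2*. With the block added, *HMGCS1* was at 0.068, *TM7SF2* at −0.66 and *SREBF2* at −0.057, and with DESeq2 and the correction they were at 0.057, −0.66 and −0.073. Over the fits with a library left out, with and without the correction, log2 fold changes ranged from −0.075 to 0.26 for *ACACA*, −0.088 to 0.46 for *EBP*, −0.23 to 0.16 for *HMGCS1*, −0.28 to 0.15 for *IDI1*, −0.089 to 0.47 for *MSMO1*, −0.037 to 0.98 for *PMVK*, −0.081 to 0.66 for *SREBF2*, −0.38 to 0.12 for *STARD4* and −0.76 to 0.62 for *TM7SF2*. The cause of these changes was not tested.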

Other observations

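In fatty acid oxidation, *ETFDH*, *ECI2*, *DECR1*, *ACADM*, *ACAA2* and *CPT2* were lower beside *ACADL*, and *ETFB*, *ECI1* and *ACADS* were higher; these were named after their values had been seen. *ETFDH*, which passes electrons from acyl-CoA dehydrogenases to ubiquinone, had 85.1, 91.7 and 83.6 CPM in sh-control against 48.4, 51.8 and 50.6 CPM in the sh-*RREB1*-labelled libraries (log2 fold change −0.79, edgeR adjusted p = 0.00369). *ECI2*, an enoyl-CoA isomerase, was at 123, 132 and 128 CPM against 72.1, 90.7 and 81.4 CPM (−0.65, adjusted p = 0.00839). *ACADM*, the medium-chain dehydrogenase, was at 249, 240 and 229 CPM against 178, 152 and 166 CPM (−0.53, adjusted p = 0.0106). All libraries of the second group were below sh-control in each of these 3 genes. Of the 21 listed genes, 7 were lower at an adjusted p below 0.05, against 8.66% of all genes, and 8 after the GC and length correction, against 11.6%. These are not the same genes, since after the correction *ACAA2* was at −0.20 (adjusted p = 0.213) and *CPT2* at −0.35 (adjusted p = 0.0701), while *SLC25A20*, *HADHA* and *ACADVL* passed at −0.38, −0.31 and −0.29. *ETFB* ran the other way, at a log2 fold change of 1.45 (adjusted p = 0.0154), and at 1.37 after the correction (adjusted p = 0.00152). *ECI1* was at 1.01 (adjusted p = 0.02885) and *ACADS* at 1.34 (adjusted p = 0.0499), and after the correction they were at 0.07 and 0.04 (adjusted p of 0.663 and 0.934).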
